A study of Mus musculus with 33 samples.

Results

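Scavenger receptors and related pattern-binding genes were examined in 33 bulk RNA-seq samples of sorted liver and lung macrophages (macs) in which the transcription factor gene *Zeb2* had or had not been targeted. The 10 genes (*Marco*, *Msr1*, *Colec12*, *Scarb1*, *Scarb2*, *Cd68*, *Stab1*, *Mrc1*, *Mrc2* and *Cd5l*) were taken by symbol, and all 10 were found among the 24421 genes of the count tables. Kupffer cells (KCs), the resident macs of the liver, came from *Zeb2* fl/fl littermates without Cre (CRE-, 6 samples) and from CRE+ mice of the genotype *Clec4f-cre*x*Zeb2* fl/fl, whose KCs were sorted as Tim4+ cells (6 samples) and Tim4- cells (6 samples). Alveolar macs (AMs), which live in the lung airspaces, came from *Zeb2* fl/fl mice (CRE-, 5 samples) and from *Itgax-cre*x*Zeb2* fl/fl (CRE+) animals, sorted as CD11b- cells (5 samples) and CD11b+ cells (5 samples). All groups carried the floxed *Zeb2* alleles on a C57Bl/6 background, and the mice were 6 to 8 weeks old. Cre was driven by *Clec4f*, a KC gene, or by *Itgax*, which encodes CD11c and is also active in other CD11c-expressing cells. Both CRE+ populations can hold cells in which only 1 *Zeb2* allele was lost.

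Scavenger receptors are surface proteins that bind modified lipoproteins, microbial surfaces, dying cells and glycans, and macs of the liver sinusoids and of the alveoli are known for clearing such particles. Class A receptors (MARCO, the product of *Msr1*, and the collectin of *Colec12*) are trimeric and carry collagen-like stretches. Class B receptors (*Scarb1*, which takes up cholesterol from lipoproteins, and *Scarb2*, a lysosomal membrane protein that sorts glucocerebrosidase) share the CD36 fold. CD68 is a heavily glycosylated protein of late endosomes in macs, and stabilin-1 (*Stab1*) is an endocytic receptor of macs and sinusoidal endothelium. *Mrc1* and *Mrc2* encode mannose receptor family members that bind glycans or collagen, and *Cd5l* encodes AIM, a secreted protein with scavenger receptor cysteine-rich domains.

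Promoter sequences (RefSeq, GRCm38.p6, 250 bases before to 50 bases after the start) were found by symbol for 6 of the 10 genes. Shown here are those of *Stab1*, which was high in KCs and all but missing from CRE- AMs, of *Marco*, which changed in CRE+ cells of both tissues, and of *Cd5l*, the most abundant gene of the list in KCs. All are written 5′ to 3′ on the gene's own strand, and capitals mark CACCTG, the E2-box letters that ZEB factors are known to bind, and GAGGAAG, a core of the PU box bound by the mac factor PU.1, each on either strand.
*Stab1*, chr14:31168592-31168891, minus strand: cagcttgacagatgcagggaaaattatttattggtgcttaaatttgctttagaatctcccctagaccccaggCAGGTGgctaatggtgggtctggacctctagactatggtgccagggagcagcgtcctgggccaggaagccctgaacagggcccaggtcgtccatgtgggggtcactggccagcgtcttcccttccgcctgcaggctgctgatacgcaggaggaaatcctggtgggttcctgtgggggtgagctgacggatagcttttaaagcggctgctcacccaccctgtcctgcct
*Marco*, chr1:120504975-120505274, minus strand: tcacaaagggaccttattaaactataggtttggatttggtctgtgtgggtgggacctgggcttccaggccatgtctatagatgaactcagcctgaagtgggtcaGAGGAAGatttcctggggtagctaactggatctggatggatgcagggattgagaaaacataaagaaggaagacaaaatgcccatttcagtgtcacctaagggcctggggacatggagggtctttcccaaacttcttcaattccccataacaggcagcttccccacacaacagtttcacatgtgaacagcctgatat
*Cd5l*, chr3:87357631-87357930, plus strand: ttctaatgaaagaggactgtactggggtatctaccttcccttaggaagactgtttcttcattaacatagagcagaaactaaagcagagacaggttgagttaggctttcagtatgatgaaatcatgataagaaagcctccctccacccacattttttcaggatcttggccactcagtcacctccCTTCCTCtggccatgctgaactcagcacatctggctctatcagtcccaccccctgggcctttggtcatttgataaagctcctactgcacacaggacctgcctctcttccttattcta
CACCTG was present in 20.2% of the 32851 promoters of the same length in the table, and among the 6 promoters it occurred once, in *Stab1*, 178 bases before the start. GAGGAAG was present in 13.6% of all promoters and occurred in *Marco* (146 bases before the start), *Cd5l* (67 bases before it) and *Mrc1* (at 168 and 36 bases). The motifs do not overlap each other, and CACGTG, the E-box of lysosomal gene regulators, occurred in none of the 6 against 7.15% of all promoters. These matches describe the letters of these windows only.

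Between 9837240 and 24332306 reads were counted on genes per sample, and values below are CPM (counts divided by library size and scaled by the TMM method). *Zeb2* itself fell from 283 ± 38.7 CPM (SD, n = 6) in CRE- KCs to 175 ± 25.9 in Tim4+ and 170 ± 16.3 in Tim4- KCs (SD, n = 6 each). It fell from 194 ± 16.3 in CRE- AMs to 105 ± 11.9 in CD11b- and 62.1 ± 7.88 in CD11b+ AMs (SD, n = 5 each). The count covers the whole gene and the floxed allele still gives a truncated transcript, so these values do not measure how many cells lost it. KC markers fitted the labels: *Clec4f* had a mean of 10930 CPM in CRE- KCs and 0.272 in CRE- AMs, and *Timd4*, which encodes the sort marker Tim4, had 2.83 in Tim4- KCs. *Clec4f* was lower in CRE+ KCs, at 4720 CPM in Tim4+ and 3612 in Tim4- cells. Of 5 KC markers, 1 was called lower in Tim4+ KCs, and 3 lower and 1 higher in Tim4- KCs, against CRE- KCs. The AM markers *Car4* and *Krt79* were at 0 in every CRE- KC sample. Of 7 AM markers, 0 were called in CD11b- AMs, and 1 higher and 3 lower in CD11b+ AMs, against CRE- AMs. Of 5 AM markers tested in KCs, 2 were called higher in Tim4+ and 4 in Tim4- KCs, and 0 lower, against CRE- KCs. Genes were called changed at an adjusted p below 0.05 together with a log2 fold change beyond 1 in either direction (edgeR's quasi-likelihood test, Benjamini-Hochberg adjustment over all genes tested).

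**Figure D1:**
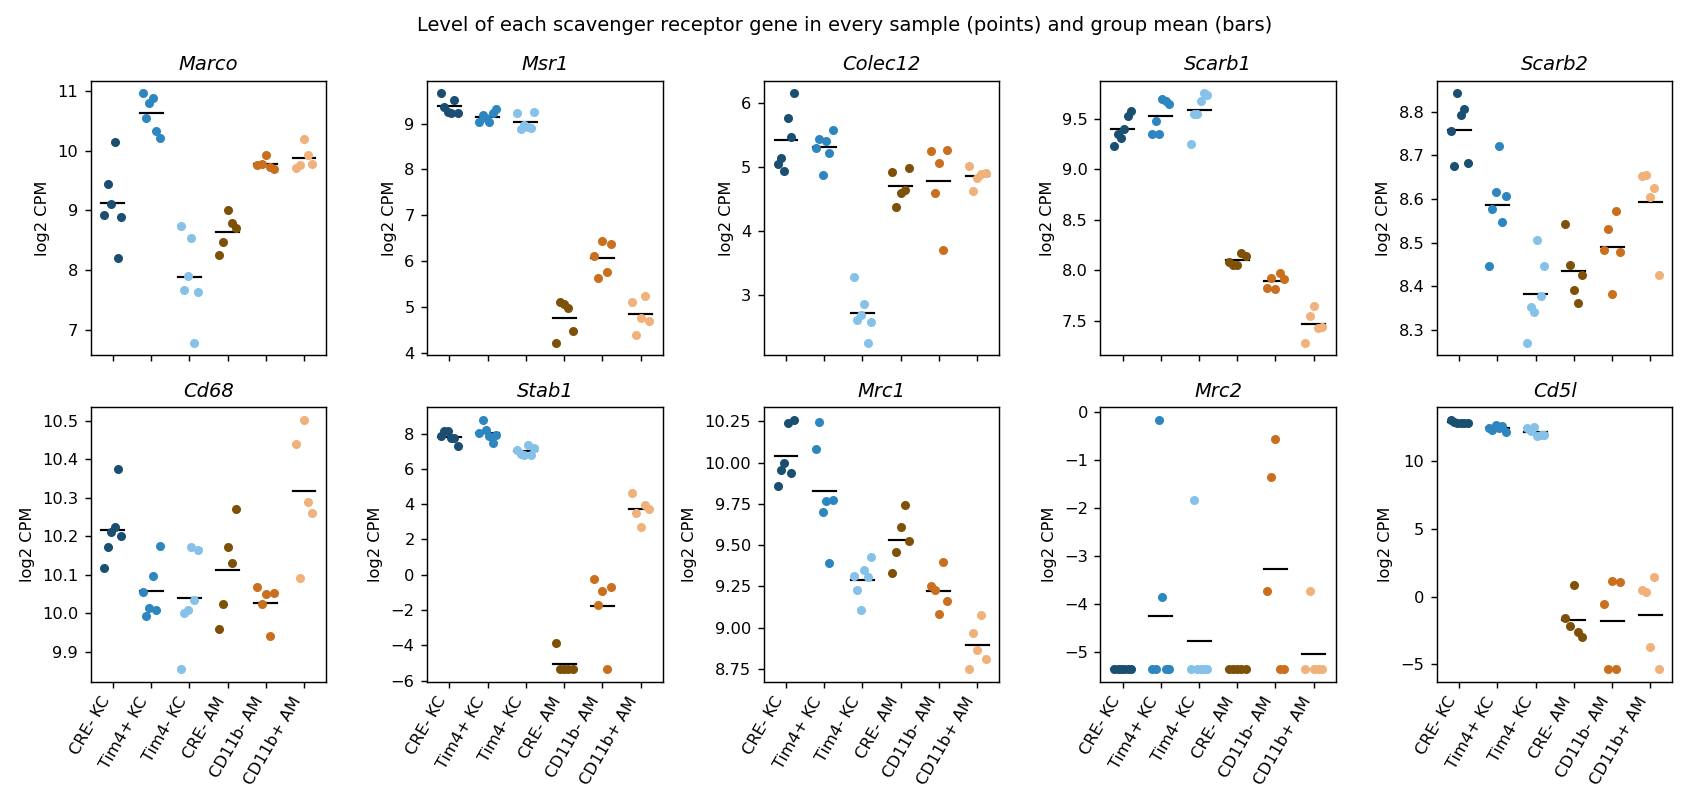
Log2 CPM (y axis, each panel with its own range) of each of the 10 genes in every sample (points) of the 6 groups (x axis), with bars at the group means of log2 CPM. *Stab1* and *Cd5l* separate KCs from AMs, *Colec12* drops in Tim4- KCs alone, *Marco* is highest in Tim4+ KCs, and *Mrc2* is at or near 0 throughout; points at the bottom of the *Stab1*, *Mrc2* and *Cd5l* panels are samples with 0 counts.

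In the CRE- controls, compared to ask how far the receptor repertoire differs between tissues, KCs and AMs shared high *Cd68* and *Mrc1* and differed most in *Cd5l*, *Stab1* and *Msr1*. Of the 9 genes tested (*Mrc2* was too low in every comparison), 4 had a higher level in CRE- KCs than in CRE- AMs and 0 a lower one, where 20.9% of the 12145 genes tested were higher and 12.4% lower. The median log2 fold change was 0.77 over the 9 genes and 0.029 over all genes tested.

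*Cd5l* (chr3:87357881-87371073) was the most abundant of the genes in KCs, with a lowest, median and highest value of 6985, 7141 and 8203 CPM in the CRE- samples. The CRE- AM samples had 0.312, 0.195, 1.78, 0.143 and 0.101 CPM, from 7, 4, 39, 3 and 2 counts. The groups were therefore far apart, and the ratio of pooled counts was 14010 (exact 95% interval 10760 to 18590, counting error only). Of those AM counts 39 came from CRE- AM replicate 3, and without it the log2 fold change was 15.19 against 13.77 with all samples. *Stab1* (chr14:31139013-31168641) had 155, 223 and 288 CPM as lowest, median and highest value in CRE- KCs. In CRE- AMs it had 1 count in 1 sample and 0 counts in the other 4, and a count of 0 allows at most 3 counts in such a library. Both genes passed the test (adjusted p = 8.52e-13 for *Cd5l* and 2.093e-13 for *Stab1*). The fitted fold of *Stab1*, with 1 AM count, depends on edgeR's prior count. Its ratio of pooled counts, 29365 in KCs and 1 in AMs, was 24400 (exact 95% interval 4379 to 963900). *Stab1* overlaps *Nt5dc2* on the opposite strand, and the strand setting of the counting is not given in the sources used here.

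*Msr1* (chr8:39581685-39642673), which encodes scavenger receptor A, had 597, 636 and 806 CPM as lowest, median and highest value in CRE- KCs. The CRE- AM samples had 18.7, 34.4, 33.4, 31.6 and 22.2 CPM, all far below the KCs. The log2 fold change was 4.58 (SE 0.18, adjusted p = 1.594e-11). *Scarb1* (chr5:125277087-125341094) lay between 600 and 765 CPM in CRE- KCs and between 265 and 288 CPM in CRE- AMs, again without overlap, and differed by 1.32 on the log2 scale (SE 0.069, adjusted p = 4.883e-10).

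*Scarb2*, *Mrc1* and *Colec12* passed the adjusted p but not the fold cut-off, at log2 fold changes of 0.34, 0.52 and 0.77. *Marco* did not pass (0.59, adjusted p = 0.0652), with CRE- KCs spread from 295 to 1127 CPM around the CRE- AM samples of 306 to 511. *Cd68* had the least difference, with 1192 ± 73.0 CPM in KCs (SD, n = 6) and 1109 ± 94.98 in AMs (SD, n = 5). Per kilobase of exon, CRE- KCs ranked *Cd5l* (3585 CPM per kb) above *Cd68* (948) and *Marco* (314), whereas CRE- AMs ranked *Cd68* (882) above *Marco* (211) and *Mrc1* (117). *Mrc2*, which encodes the collagen receptor Endo180, had 0 counts in all CRE- samples and at most 20 counts in any library, so it was not detectable at this depth in the controls.

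In CRE+ KCs, compared to ask how the receptors differ where *Zeb2* was targeted, *Marco* moved in opposite directions in Tim4+ and Tim4- cells. *Colec12* fell in the Tim4- cells. CRE- KCs were not split by Tim4, which the study reports to go with the time KCs have spent in the tissue. The study also lists *Marco*, *Colec12* and *Cd163* among genes that differ between monocyte-derived and embryonic KCs. In either CRE+ KC population, loss of ZEB2 and cell origin cannot be told apart. *Cx3cr1* and *Ccr2*, also on that list, were called higher in Tim4+ KCs (log2 fold changes 3.73 and 2.11) and in Tim4- KCs (4.79 and 4.52). *Colec12* and *Cd207*, on the same list, were not called in Tim4+ KCs. In Tim4+ KCs 1 of 9 genes was higher than in CRE- KCs and 0 were lower, beside 1.94% and 0.376% of the 12500 genes tested. In Tim4- KCs 0 were higher and 2 lower (3.43% and 5.39% of all genes). Between Tim4- and Tim4+ KCs 0 were higher and 3 lower (0.44% and 5.01%). The median of the 9 log2 fold changes was -0.18, -0.72 and -0.27 in these comparisons, against -0.0031, -0.031 and 0.0084 over all genes. Both CRE+ groups are set against the same CRE- samples.

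*Marco* (chr1:120474538-120505024), the receptor that AMs use to take up unopsonized particles and bacteria, had 295, 518 and 1127 CPM as lowest, median and highest value in CRE- KCs. In Tim4+ KCs these were 1191, 1639 and 1990, and in Tim4- KCs 110, 221 and 429. Every Tim4+ sample lay above every CRE- sample, whereas the Tim4- samples overlapped with the CRE- samples only at CRE- replicate 5 (295 CPM). The log2 fold change was 1.39 in Tim4+ KCs (SE 0.29, adjusted p = 0.00428) and -1.25 in Tim4- KCs (SE 0.29, adjusted p = 0.00328). Between the Tim4- and Tim4+ cells of the CRE+ mice it was -2.64 (SE 0.30, adjusted p = 1.76e-05). The call in Tim4- against CRE- KCs rested on CRE- replicate 4, the sample of 1127 CPM: without it the log2 fold change was -0.98 (adjusted p = 0.0113), short of the fold cut-off.

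*Marco* also varied within each KC group by replicate number. Replicates 5 and 6 of every KC group carried counts of the Y-linked gene *Ddx3y* (1304 to 1720) and 0 of *Xist*, and replicates 1 to 4 carried 260 to 534 of *Xist*. In CRE- KCs, *Marco* was 295 and 476 CPM in replicates 5 and 6 and between 483 and 1127 in replicates 1 to 4. In Tim4+ KCs it was 1292 and 1191 against 1489 to 1990, and in Tim4- KCs 110 and 199 against 203 to 429. Replicates 5 and 6 thus had the lowest *Marco* values in each of the 3 groups. With the replicate set as a term beside the group, a fit chosen after these values were seen, the log2 fold change was -0.80 (SE 0.19, adjusted p = 0.0482 by edgeR's quasi-likelihood test), which does not reach the fold cut-off. None of the 9 genes tested was called in that fit (0 higher and 0 lower), beside 0.272% of all genes higher and 0.128% lower, and the other 8 had adjusted p of at least 0.10. With this term in the fit *Marco* kept its log2 fold changes in the CRE+ groups, at 1.43 in Tim4+ and -1.26 in Tim4- KCs. Sex and whatever else these replicates share cannot be told apart.

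**Figure D2:**
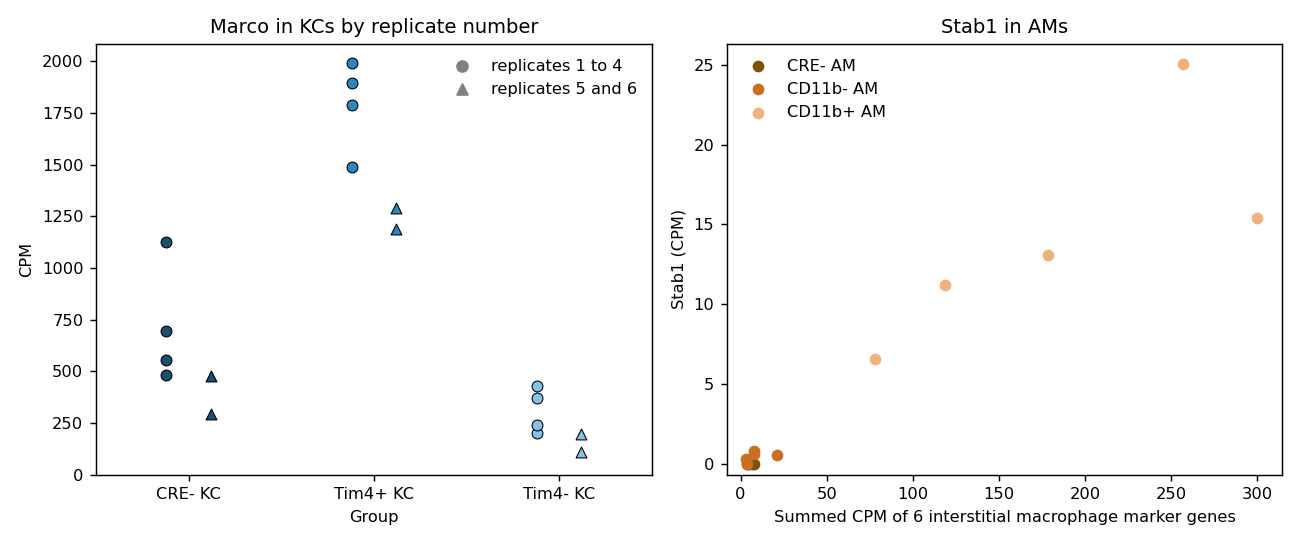
Left, *Marco* (CPM) in the 18 KC samples by group, with circles for replicates 1 to 4 and triangles for replicates 5 and 6; the triangles are the lowest points of every group. Right, *Stab1* (CPM, y axis) against the summed CPM of 6 interstitial macrophage marker genes (x axis) in the 15 AM samples; the CD11b+ samples, from 6.57 to 25.1 CPM of *Stab1*, are also those with 78.1 to 300 CPM of the marker genes.

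*Colec12* (on chromosome 18), a class A receptor of low level in these cells, had 30.5, 39.6 and 70.6 CPM as lowest, median and highest value in CRE- KCs. Tim4+ KCs overlapped with these, at 29.3, 40.7 and 47.7 CPM, and Tim4- KCs had 4.72, 6.25 and 9.70. Tim4- samples lay below all other KC and AM samples. *Colec12* fell by 2.78 on the log2 scale against CRE- KCs (SE 0.21, adjusted p = 5.571e-09) and by 2.60 against Tim4+ KCs (SE 0.21, adjusted p = 2.268e-07). In Tim4+ against CRE- KCs the log2 fold change was -0.18 (SE 0.19, adjusted p = 0.702).

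*Stab1* had 179, 253 and 437 CPM as lowest, median and highest value in Tim4+ KCs and 109, 124 and 163 in Tim4- KCs. The Tim4- samples lay below all Tim4+ samples and overlapped with the lowest CRE- sample. *Stab1* fell by 1.09 on the log2 scale between Tim4- and Tim4+ KCs (SE 0.18, adjusted p = 0.000306), and was -0.86 against CRE- KCs (adjusted p = 0.00111), which does not reach the fold cut-off. Without Tim4+ replicate 2, the sample of 437 CPM, the log2 fold change between Tim4- and Tim4+ KCs was -0.91, and in replicates 5 and 6 alone it was -0.76 (adjusted p = 0.113).

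Genes of liver sinusoidal endothelium were, like *Stab1* and *Colec12*, lowest in Tim4- among the KC groups. The summed level of 11 endothelial markers was between 833 and 2389 CPM in CRE- KCs. It was between 1341 and 3899 in Tim4+ KCs, and between 497 and 659 in Tim4- KCs. Of the 11, 10 were called lower in Tim4- KCs than in either other group. The other, *Cdh5*, was at log2 fold changes of -0.99 against CRE- and -0.51 against Tim4+ KCs, short of the fold cut-off. The study names *Cdh5* among core KC genes, so the sums can include RNA of KCs. Sums without *Cdh5* were not computed. None of the 11 was at 0 in any KC group. The CRE- sample with the lowest sum (833) had the lowest *Stab1* of its group (155 CPM) and the Tim4+ sample with the highest sum (3899) the highest (437), but within Tim4- KCs the sample with the highest sum (659) had 115 CPM and the highest *Stab1* (163) stood at a sum of 537. *Colec12* did not follow the sum within CRE- KCs: its highest value (70.6) was at the sum of 833 and its lowest (30.5) at 2389. Between Tim4+ and CRE- KCs, where *Marco* differed, 0 of the 11 markers passed both cut-offs. Most of them were nonetheless higher in Tim4+ KCs, at log2 fold changes of up to 0.79, while *Stab2* (-0.066) and *Cdh5* (-0.49) were lower. In bulk samples, fewer cells of a type and less RNA per cell cannot be told apart, and the part of endothelial RNA in these levels was not tested. The KCs were purified by FACS, and the study's methods list a gate of live CD45+, F4/80+, CD64+ and Clec4F+ cells for its single-cell sort but none for these bulk samples.

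**Figure D3:**
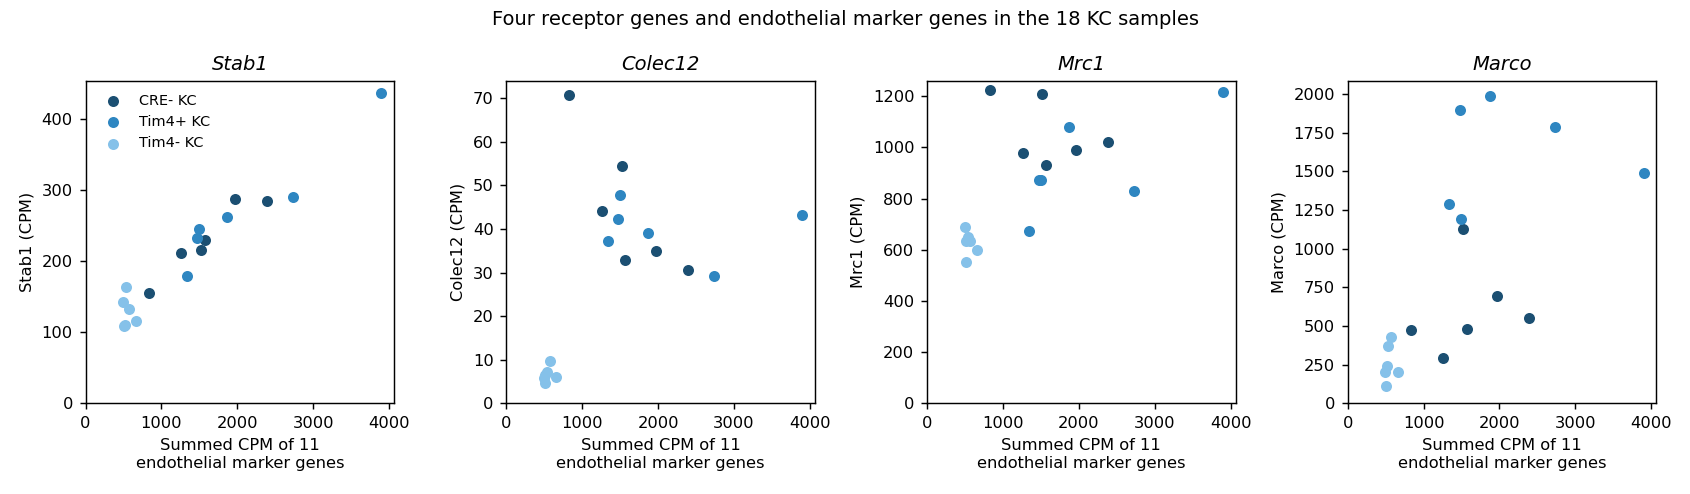
*Stab1*, *Colec12*, *Mrc1* and *Marco* (CPM, y axes) against the summed CPM of 11 liver sinusoidal endothelial marker genes (x axes) in the 18 KC samples, coloured by group. The sum includes *Cdh5*, which the study names among core KC genes. The highest *Stab1*, 437 CPM, stands at the highest sum (3899), within the Tim4- samples the highest sum (659) stands at 115 CPM, and the Tim4+ samples are set apart on *Marco* at sums that overlap with those of CRE- KCs.

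Hepatocyte markers were also lower in sum in Tim4- KCs (73.6 to 203 CPM, against 150 to 434 in CRE- KCs) with 1 of 7 passing the test, and monocyte markers were higher (284 to 814 against 77.7 to 302 CPM) with 1 of 4 tested passing. Their part was not tested.

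The other KC receptors moved less than 2-fold. *Cd5l* was lower in every CRE+ sample than in every CRE- sample, with a range of 4507 to 6238 CPM in Tim4+ and 3628 to 5599 in Tim4- KCs against 6985 to 8203. Its log2 fold changes were -0.45 (adjusted p = 0.00777) and -0.72 (adjusted p = 2.471e-05). *Mrc1* (chr2:14229392-14332057), the mannose receptor CD206, was 551 to 690 CPM in Tim4- and 930 to 1226 in CRE- KCs, without overlap (log2 fold change -0.78, adjusted p = 3.054e-05). *Scarb2* likewise was lower in every Tim4- sample (309 to 364 CPM) than in every CRE- sample (409 to 459), at -0.40 on the log2 scale. *Msr1* and *Cd68* were under the adjusted p threshold in Tim4- KCs at -0.37 and -0.20, and *Scarb1* was not (0.17, adjusted p = 0.179).

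**Figure D4:**
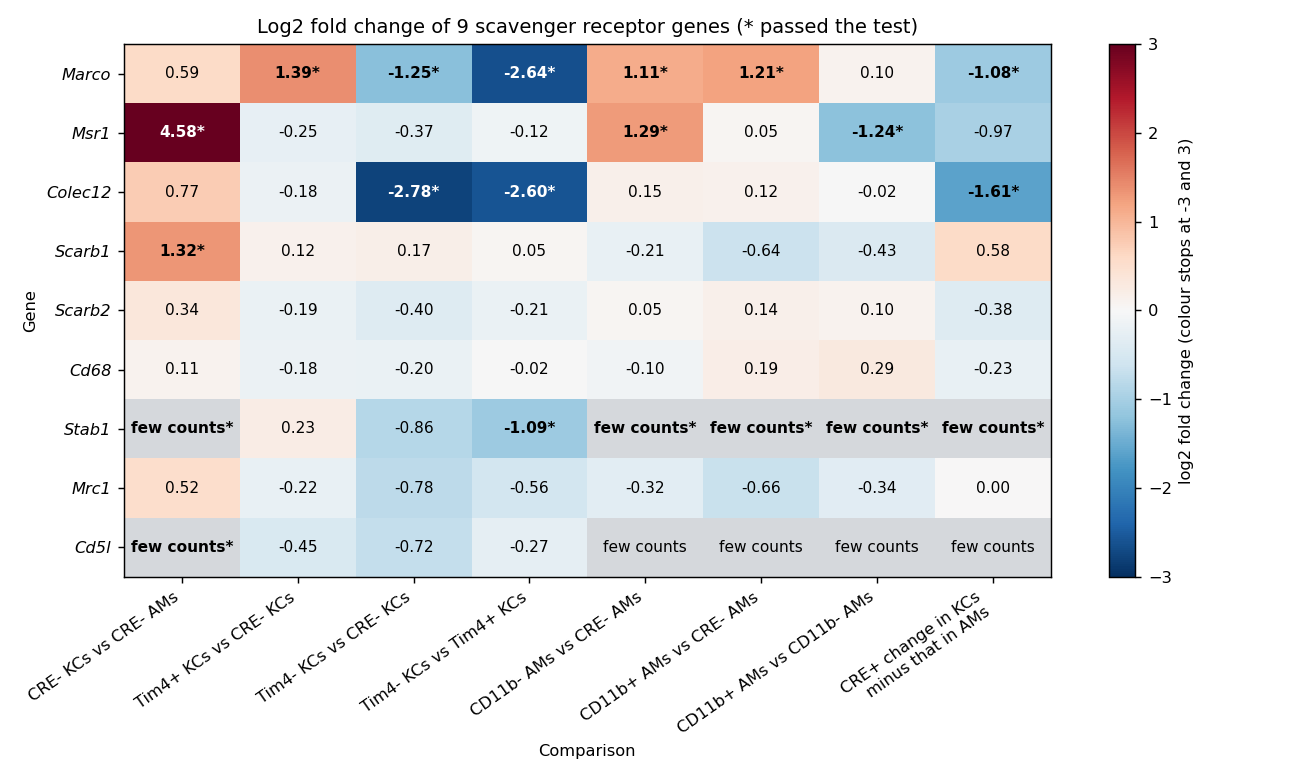
Log2 fold changes (colour, which stops at -3 and 3, and printed values) of the 9 tested genes (rows) in the 8 comparisons (columns), with asterisks where the test was passed. *Marco* passed in 6 of the 8 columns, with both signs; grey cells mark *Stab1* and *Cd5l* where an AM group held under 100 counts in all.

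In the CRE+ AMs, *Marco* rose in both sorted populations, *Msr1* rose in the CD11b- cells, and *Stab1*, all but missing from CRE- AMs, appeared in the CD11b+ cells. In CD11b- AMs 3 of 9 genes were higher than in CRE- AMs and 0 lower, beside 3.98% and 2.51% of the 11573 genes tested. In CD11b+ AMs 2 were higher and 0 lower (9.57% and 5.68% of all genes). Between CD11b+ and CD11b- AMs 1 was higher and 1 lower (6.85% and 3.3%). The medians of the 9 log2 fold changes were 0.15, 0.14 and 0.065, against 0.0027, -0.0052 and 0.022 over all genes.

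*Marco* had 306, 354, 511, 441 and 415 CPM in the CRE- AM samples. The CD11b- samples had 864, 880, 976, 849 and 832 CPM, and the CD11b+ samples 836, 866, 1175, 974 and 881. Both CRE+ populations lay above all CRE- samples and overlapped with each other. The log2 fold changes were 1.11 in CD11b- (SE 0.11, adjusted p = 5.329e-07) and 1.21 in CD11b+ AMs (SE 0.11, adjusted p = 3.405e-08), and 0.097 between the populations (SE 0.11, adjusted p = 0.542).

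*Msr1* reached 69.4, 49.8, 87.4, 54.7 and 83.5 CPM in CD11b- AMs, above every CRE- sample. In CD11b+ AMs it had 34.8, 20.9, 27.3, 38.1 and 25.9 CPM, which overlapped with CRE- AMs and lay below all CD11b- samples. *Msr1* rose in CD11b- against CRE- AMs (log2 fold change 1.29, SE 0.20, adjusted p = 6.08e-05) and was lower in CD11b+ than in CD11b- AMs (-1.24, SE 0.20, adjusted p = 5.268e-05). Neutrophil markers were also higher in CD11b- than in CRE- AMs, in sum 807 to 2424 CPM against 36.1 to 59.6. Of 7 tested, 5 were higher, among them *S100a8* and *S100a9*, which made up most of the sum. The others were *Cxcr2* (mean 150 against 3.25 CPM), *Csf3r* (114 against 38.2) and *Ltf* (1.66 against 0.172). *Camp* and *Ngp*, at 0 in CD11b- AMs, were not tested. The part of neutrophil RNA in the *Marco*, *Msr1* and *Stab1* levels of CD11b- AMs was not tested. Even in CD11b- AMs the *Msr1* mean of 69.0 CPM stayed far below the 524 CPM of Tim4- KCs, the lowest KC group.

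*Stab1* had 16, 7, 11, 0 and 12 counts in the CD11b- AM samples and 411, 221, 126, 292 and 226 in the CD11b+ samples, or 25.1, 11.2, 6.57, 15.4 and 13.1 CPM in the latter. The CD11b+ samples lay above all others, and the CD11b- sample at 0 matched the CRE- samples. Pooled counts were 31.3 times higher in CD11b+ than in CD11b- AMs (exact 95% interval 23.3 to 43.0, counting error only), with an adjusted p of 2.008e-07 by edgeR's quasi-likelihood test. Against the 1 count of CRE- AMs the ratio was 1472 (exact 95% interval 264 to 58200) for CD11b+ and 47.1 (8.03 to 1898) for CD11b- AMs, with adjusted p of 1.847e-09 and 0.00104. The call in CD11b- AMs was lost with limma-voom (adjusted p = 0.141). CRE- KCs still held 16.6 times the *Stab1* of CD11b+ AMs.

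Markers of other cells moved with *Stab1* in the CD11b+ AMs. A list of 6 lung interstitial macrophage genes summed to 3.85 to 7.65 CPM in CRE- AMs, 3.47 to 21.2 in CD11b- AMs and 78.1 to 300 in CD11b+ AMs, and 6 of 6 were higher in CD11b+ than in CRE- AMs. The CD11b+ samples with the lowest and the highest *Stab1* (6.57 and 25.1 CPM) had interstitial sums of 78.1 and 257 CPM. The highest sum (300), in replicate 4, stood at 15.4 CPM of *Stab1*. Monocyte markers (6.0 to 10.8 CPM in CRE- and 85.1 to 280 in CD11b+ AMs, 5 of 5 tested higher) and neutrophil markers (36.1 to 59.6 and 8183 to 10480 CPM, 7 of 7 tested higher) moved too. The list of liver sinusoidal endothelium was at 31.3 to 45.4 CPM in CD11b+ AMs, most of it *Lyve1* (24.4 to 38.5). Of 5 of its genes tested, 2 were higher than in CRE- AMs, *Lyve1* and *Flt4* (mean 1.95 against 0.107 CPM). *Stab2*, a receptor of sinusoidal endothelium, was at 0 in all 5 samples. The list was made for the liver, and lung endothelium had no list of its own. The gate given for AMs, again for the single-cell sort only, was live CD45+, CD64+, F4/80+, SiglecF+ and CD11c+ cells. The part of other lung cells in the *Stab1* level was not tested.

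*Scarb1* and *Mrc1* stepped down from CRE- to CD11b- to CD11b+ AMs without reaching the fold cut-off. *Scarb1* was 265 to 288, 224 to 252 and 155 to 200 CPM in the 3 groups, no 2 of which overlapped, with log2 fold changes of -0.21 and -0.64 against CRE- AMs (adjusted p = 0.0188 and 9.309e-08). *Mrc1* was 643 to 859, 541 to 674 and 430 to 540 CPM, at -0.32 and -0.66 (adjusted p = 0.00473 and 9.688e-07), and only its CD11b+ samples were apart from both other groups. *Cd68* had 1282 ± 142 CPM in CD11b+ AMs (SD, n = 5), the highest of its 6 group means, at a log2 fold change of 0.19 over CRE- AMs (adjusted p = 0.0354). *Scarb2* (log2 fold change 0.14 in CD11b+ AMs) and *Colec12* (0.12) did not reach the fold cut-off, and *Cd5l* stayed between 0 and 50 counts in every AM sample.

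To ask whether the CRE+ change differed between the tissues, the mean change of both CRE+ KC groups was set against that of both CRE+ AM groups in 1 fit of all 33 samples. Of the 9 genes 0 were higher and 3 lower by this difference, beside 3.5% and 4.65% of the 13294 genes tested. For *Marco* it was -1.08 on the log2 scale (SE 0.31, adjusted p = 0.0117), with the opposite moves of Tim4+ and Tim4- KCs averaged on the KC side. Leaving out CRE- KC replicate 4 or CRE- AM replicate 1 brought it to -0.81 and -0.99, within the fold cut-off. For *Colec12* the difference was -1.61 (SE 0.27, adjusted p = 2.432e-05). Its KC side averages the fall in Tim4- KCs (-2.78) with Tim4+ KCs, which were not called (-0.18). *Stab1* passed as well (adjusted p = 5.33e-08), its size resting on the few AM counts. *Msr1* was just inside the cut-off at -0.97 (SE 0.19, adjusted p = 0.000218) and passed it when any 1 of 9 samples was left out. Tissue and Cre line cannot be told apart in this comparison.

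By group mean, *Marco* ran from Tim4+ KCs (1608 CPM) through CD11b+ AMs (947), CD11b- AMs (880), CRE- KCs (605) and CRE- AMs (406) to Tim4- KCs (258), and only the first step separated all samples. For *Scarb1* the 3 KC groups (774, 746 and 678 CPM in Tim4-, Tim4+ and CRE- KCs) overlapped, and each later step down to CD11b+ AMs (178) did not. For *Cd68* every neighbouring pair of groups overlapped between 1043 and 1282 CPM. The genes whose log2 CPM went most closely with a member over the 33 samples, among 6209 candidates, were *Fcgr2b*, an inhibitory Fc receptor, for *Marco* (Pearson's r 0.74), *Ptgs1*, which encodes cyclooxygenase-1, for *Msr1* (0.987), *Aoah*, a lipase that inactivates endotoxin, for *Stab1* (0.977), and *Hacd4* for *Cd5l* (0.976). The r of genes that separate KCs from AMs follows that split, and the points share groups and libraries, so these values are descriptions.

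Of 23 other genes of the scavenger and mannose receptor families, 15 could be tested between the controls, with 8 higher in KCs and 3 higher in AMs. Of all genes tested, 20.9% were higher in KCs and 12.4% higher in AMs. Some of those called were of low level, with *Asgr1*, *Asgr2* and *Pla2r1* at means of 1.81, 0.686 and 4.28 CPM in CRE- KCs. *Ager*, higher in AMs, had a mean of 2.40 CPM in CRE- AMs. *Cd163*, the hemoglobin-haptoglobin receptor, had 1271 ± 140 CPM in CRE- KCs (SD, n = 6) and 0.102 in CRE- AMs, and *Olr1*, a receptor for oxidized LDL, had 0.132 and 470 ± 51.9 (SD, n = 5). *Stab2*, a hyaluronan receptor, had 331 ± 75.0 CPM in CRE- KCs (SD, n = 6) and 0.0181 in CRE- AMs, and *Scarf1*, a receptor of endothelium and macs, had 94.0 and 0.304. In Tim4+ KCs only *Cd163* of 14 tested was called, and it fell, to 237 ± 70.7 CPM (log2 fold change -2.44, adjusted p = 2.513e-08). In Tim4- KCs 3 were lower and 0 higher, *Cd163* among them at 53.1 ± 14.7 CPM (-4.60, adjusted p = 1.014e-11) and *Stab2*, which is also on the endothelial list, at 86.8 ± 20.95 against 331 ± 75.0 CPM. Between Tim4- and Tim4+ KCs 4 were lower, with *Cd163* at -2.16 and *Stab2* at -1.89 on the log2 scale. Of all genes tested, 1.94% were higher and 0.376% lower in Tim4+ KCs, and 3.43% and 5.39% in Tim4- KCs. Between these 2 groups the shares were 0.44% and 5.01%. In CD11b- AMs 1 of 12 tested was higher and 0 lower, *Cxcl16*, a membrane-bound chemokine that binds oxidized lipids, at 27.7 ± 8.77 against 3.77 ± 1.26 CPM (SD, n = 5; log2 fold change 2.87, adjusted p = 9.957e-09). In CD11b+ AMs 4 were higher and 1 lower, with *Cxcl16* at 209 ± 26.5 CPM and *Cd36*, a class B receptor, rising by 1.30 on the log2 scale (adjusted p = 1.937e-11). Between CD11b+ and CD11b- AMs 2 were higher and 0 lower, with *Cxcl16* at 2.91 on the log2 scale. Of all genes tested, 3.98% were higher and 2.51% lower in CD11b- AMs, and 9.57% and 5.68% in CD11b+ AMs. Between these 2 groups the shares were 6.85% and 3.3%. By the difference between the tissues 0 of 18 were higher and 2 lower, *Cxcl16* (-4.58) and *Cd163* (-8.07), beside 3.5% and 4.65% of all genes. The size of the *Cd163* value rests on few AM counts. CRE- AMs held 11 counts in all, with 3 of 5 samples at 0, and CD11b+ AMs had a mean of 6.32 CPM.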

How the data were processed

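RNA-seq of cells sorted by FACS was given as 1 table of counts per sample. The authors trimmed reads with Trimmomatic 0.35, aligned them to mm10 with TopHat2 2.1.0 and counted them per gene with HTSeq-count, and deposited these raw counts without normalization. Annotation and strand setting are not given in the sources used here. Each table listed 24421 genes. Its 5 tally rows were not analysed (4.52% to 8.9% of reads in no gene). Depth was 9837240 to 24332306 gene counts per sample, and count intervals cover counting error only.

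Groups and replicate numbers came from the labels, which do not say that replicates are separate mice, so p-values measure the spread between these samples. No replicate pair differed by as little as sampling noise (lowest chi-square per gene 12.83 over 75 pairs). Counts were fitted with edgeR 4.0.16 (R 4.3.3; TMM, filterByExpr, glmQLFit and glmQLFTest) on all genes, in fits of the 11 CRE- samples, the 18 KC samples, the 15 AM samples or all 33 samples, with Benjamini-Hochberg adjustment. The SE is the absolute log2 fold change over the square root of F. Log2 CPM used a prior count of 0.5. The code was tested on simulated data. The genes and lists were chosen with earlier results of these data known. Named were all 10 genes and, of 23 related genes, up to 4 per comparison with the largest folds among those changed and at 10 CPM or more in the higher group. Positions are from GENCODE M21 (GRCm38). Alternatives were limma-voom (limma 3.58.1), DESeq2 1.42.0, RLE factors, no filter, no fold cut-off, a replicate block, all samples in 1 fit, KC replicates 1 to 4 or 5 and 6 alone, leaving out each sample and, added after the data were seen, the KC replicate set as a term.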

Additional observations from a re-analysis of the deposited data

Results flagged for a closer look

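The values of 1 gene in 1 group, of 5 or 6 samples, were examined for 55 such sets. Of these, 4 held a sample far from the others by Dixon's criterion, and chance alone flags about 1 in 20 such sets. *Scarb2* in CD11b+ AM replicate 5 was 344 CPM, with the other 4 samples between 389 and 403. *Cd5l* in CRE- KC replicate 1 was 8203 CPM, with the other 5 between 6985 and 7321. *Cd5l* in CRE- AM replicate 3 was 1.784 CPM, with the others between 0.101 and 0.312. *Mrc2* in Tim4+ KC replicate 3 was 0.8635 CPM, with the others between 0 and 0.0451.

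The CRE+ change differed between KCs and AMs by the interaction term for *Marco* (-1.0795 on the log2 scale), *Colec12* (-1.6078) and *Stab1* (-7.6387). The *Stab1* value is set by edgeR's prior count, since CRE- AMs held 1 count in all.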

How the results depend on the processing

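Over 72 results of single genes, 639 values from the alternatives were computed, of which 623 kept their side of the thresholds, 6 lost a call, 10 gained one and 0 reversed a call. Signs changed in 13 cases over 6 results that passed in neither setting. The calls lost were *Marco* in Tim4- against CRE- KCs (-0.98 without CRE- KC replicate 4) and between the tissues (-0.81 without that sample and -0.99 without CRE- AM replicate 1), *Stab1* between Tim4- and Tim4+ KCs (-0.91 without Tim4+ KC replicate 2 and -0.76 in KC replicates 5 and 6 alone) and *Stab1* in CD11b- AMs by limma-voom (3.41). The calls gained were *Msr1* between the tissues without any 1 of 9 samples (-1.0545 to -1.0002) and *Cd5l* between the tissues without CRE- AM replicate 3 (-2.96, adjusted p = 0.01195 by edgeR's quasi-likelihood test), the sample of 39 counts.

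With no fold cut-off the genes of the list past the threshold were 7 (CRE- KCs vs CRE- AMs), 2, 8 and 5 (the KC comparisons), 5, 6 and 5 (the AM comparisons) and 7 (between the tissues), and of all genes 7680, 761, 3169, 1433, 2972, 5004, 4215 and 2597. With KC replicates 1 to 4 alone 190 genes changed in Tim4+ KCs, and with replicates 5 and 6 alone 636 in Tim4- against CRE- KCs and 178 between Tim4- and Tim4+ KCs. Fewer samples were fitted there. Leaving out 1 sample at a time gave 1 to 2 genes of the list in Tim4- against CRE- KCs and 2 to 5 between the tissues, the 2 without CRE- AM replicate 1 and the 5 without CRE- AM replicate 3. The KC replicate set as a term, added after the data were seen, left all 27 results of single genes in KCs on their side of the thresholds.

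Between Tim4- and Tim4+ KCs all 6 same-numbered pairs deviated together (r 0.094 to 0.203, mean 0.155 against -0.031 for other pairs). All 6 samples went best with their own number. Between CD11b+ and CD11b- AMs 4 of 5 did so, at r of 0.032 to 0.087 (mean 0.063 against -0.016). Between CD11b+ and CRE- AMs 4 of 5 did so too, at r of -0.006 to 0.048. This is a hint from the data and not the design, and the main fits carried no replicate block. With the replicate block 4, 1, 2, 3, 3, 2, 2 and 3 genes of the list changed in the 8 comparisons, as without it, and 4034, 308, 1139, 716, 745, 1789, 1184 and 1117 of all genes. *Mrc2* at 0 to 20 counts and *Stab1* and *Cd5l* in AMs are limited by depth.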
